A study of Homo sapiens with 24 samples.

Results

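The genes encoding the proteins of the cytosolic ribosome were followed in HCT116 cells, a human colorectal carcinoma line, after degradation of UHRF1, DNMT1 or both. Members were taken by symbol: RPL or RPS followed by digits and, where present, a final A or X, together with RPLP0, RPLP1, RPLP2, RPSA and FAU. Pseudogenes and RPS27L were left out. The rule found 78 genes, 46 of the large subunit and 32 of the small subunit, among 58735 genes in the count tables, of which 31297 had a count in any library. RACK1, a scaffold protein on the small subunit, and 8 genes with names close to those of members were kept apart as neighbouring lists.

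RNA-seq libraries came from 24 samples in 8 groups of 3: untagged (WT), UHRF1-AID and DNMT1-AID cells, and cells with both tags, UHRF1-AID/DNMT1-AID, called the compound line here, each at day 0 and at day 4. All lines carry the plant F-box protein OsTIR1 under a doxycycline-inducible promoter, which targets AID-tagged proteins for destruction when auxin is added. The tags were knocked into the endogenous genes, with mClover at the C-terminus of UHRF1 and mRuby2 at the N-terminus of DNMT1. Day 0 cells received no auxin, and the labels do not say whether they received doxycycline. Day 4 cells, WT included, were given doxycycline at 2 µg/mL and auxin at 500 µM. The study's methods describe a day in doxycycline and the compound auxinole before auxin. Whether day 0 cells were taken before or after that day is not stated there. According to the study's methods, replicates of a degron line are different clones, so p-values measure the spread between these clones, and where the WT replicates come from is not given in the sources used here. Each library stands for a whole culture, so fewer cells of a type and less RNA per cell cannot be told apart.

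Gene counts ranged from 15824804 to 25073821 per library, with 1838360 to 3536951 of them on the members, so that counting error was small for all but a few members. The headers placed 15 libraries in 1 alignment folder (all of day 0 and UHRF1-AID at day 4) and the other 9 libraries of day 4 in another, and these 9 alone held counts on spiked-in ERCC control RNAs, at 0.891% to 1.65% of the library. UHRF1-AID at day 4 against its own day 0, and DNMT1-AID and compound cells against WT at day 4, were therefore compared within a folder. UHRF1-AID against WT at day 4, and the day comparisons of the other 3 lines, crossed folders. Spearman's rho between transcript length and a library's deviation from the mean of all libraries, over genes that are not members, ran from -0.19 to 0.27, and WT day 0 replicate 3 (-0.19) and DNMT1-AID day 0 replicates 1 and 2 (-0.19 and -0.17) stood apart from their groups (0.13 to 0.26 in the other libraries of those groups), as did UHRF1-AID day 4 replicate 2 (-0.13, beside 0.20 and 0.14). Without that last library 74 members were lower in UHRF1-AID than in WT cells at day 4 and 68 lower than at day 0, beside 64 and 53 with it. The epithelial markers EPCAM, KRT8, KRT18, KRT19 and CDH1 were present in every library and VIL1 stayed at or under 0.417 CPM (counts scaled to library size by TMM). The 12 markers of fibroblasts, blood and endothelium stayed at or under 1.46 CPM, except COL1A1, which reached 19.3 CPM. The mRNAs of the tagged genes do not check a protein degron: UHRF1 ranged from 17.5 to 198 CPM and DNMT1 from 9.24 to 195 CPM, and both were lower at day 4 than at day 0 in WT too.

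Each ribosomal protein is needed once per ribosome, or in a few copies for the stalk proteins, and growing cells spend much of their transcription on these short and stable mRNAs. Their transcripts usually begin with a C followed by a run of pyrimidines, the 5′ terminal oligopyrimidine (TOP) motif, through which the mTOR pathway and LARP1 set how strongly the mRNAs are translated. MYC is a known activator of their transcription and of ribosome assembly. RNA-seq counts measure the amount of mRNA and say nothing of its translation.

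The starts of the annotated canonical transcripts (GENCODE 44, hg38) are shown because the TOP motif is what these genes share most plainly beyond their name. Those printed belong to members and paralogs whose values are described later, some with the motif and some without. A run of at least 5 pyrimidines starting with C was found at the start of 59 of the 78 members (75.6%), against 626 of 12365 other protein-coding genes with at least 240 counts over all libraries (5.06%). In the lists of neighbours the motif stood at 14 of 16 translation factors, 10 of 50 ribosome assembly genes, 5 of 78 mitochondrial ribosomal proteins and 1 of 8 paralogs. Capitals mark the pyrimidine run that begins at the first base. A start annotated a few bases away from the one the cells use would hide the motif. No match says only that no such run begins at the first annotated base, and a run may lie further inside the window.
RPL39 (chrX:119791611-119791630, minus strand): CCCTCCTCTTCCTTTCTCCg
RPS29 (chr14:49586361-49586380, minus strand): CTTCCTTTTacctcgttgca
RPS2 (chr16:1964807-1964826, minus strand): CTTCTTTTCCgacaaaacac
RPLP2 (chr11:809967-809986, plus strand): CCTTTTCCTCCCTgtcgcca
RPL3 (chr22:39319604-39319623, minus strand): CTCTaccggcgggatttgat
RPL4 (chr15:66504836-66504855, minus strand): aagcacttccttttcctgtg
RPL23A (chr17:28719985-28720004, plus strand): attggagacccttttcacaa
RPS28 (chr19:8321496-8321515, plus strand): actcctctccgccagaccgc
RPL22 (chr1:6199576-6199595, minus strand): CCTTTCTaactccgctgccg
RPL22L1 (chr3:170870176-170870195, minus strand): CTCTCTgctctcgcggccga
RPL10L (chr14:46651762-46651781, minus strand): gagcgcattttgacttcgag
RPL39L (chr3:187139477-187139496, minus strand): gcggtcttagcatccggcgc
RPL39 has the longest run of those shown, 19 bases, and RPL22 and its paralog RPL22L1 both carry the motif. RPL3 misses the limit by 1 base with a run of 4. RPL4, RPL23A and RPS28 begin with a purine and hold a longer pyrimidine run further inside the window, which was not scored. The start windows of the paralogs RPL10L and RPL39L hold no such run.

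The members are short genes. The canonical transcript had a median length of 781.5 bases (295 to 7573), against 3336 bases for protein-coding genes with at least 240 counts, and 2.82% of those genes were shorter than the median member. Coding sequences had a median of 454.5 bases and ran from 75 bases in RPL41 to 1281 bases in RPL4. A measure that shifts with transcript length therefore shifts the members with it, and offsets for length are given as alternatives where they move a result. The members lie on 21 chromosomes, with 12 on chromosome 19 and 4 on the X chromosome (RPL10, RPL36A, RPL39 and RPS4X). Each has at least 1 named pseudogene, with a median of 13.5 and a maximum of 133 for RPL21, but the 1590 named pseudogenes together held only 0.119% to 0.215% of the counts.

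The share of a library's gene counts that fell on the 78 genes was lowest in UHRF1-AID cells at day 4. These 3 libraries held 9.86%, 10.3% and 9.60%, a mean of 9.93% ± 0.375 (SD, n = 3). In every other group the mean was between 12.97% and 14.97%. WT cells held 12.8%, 12.9% and 15.9% at day 0 and 14.5%, 12.6% and 13.8% at day 4, UHRF1-AID cells 12.2%, 13.4% and 13.3% at day 0, and DNMT1-AID cells 15.4%, 15.7% and 13.9% at day 0 and 11.96%, 13.3% and 14.0% at day 4. Compound cells held 14.7%, 14.5% and 14.8% at day 0 and 12.3%, 14.1% and 13.8% at day 4. No UHRF1-AID library at day 4 overlapped a library of another group, and all other groups overlapped at least 1 of their neighbours. The values were used as a description, since 3 libraries against 3 cannot give an exact permutation p below 0.1.

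Most of the 78 genes were expressed within a narrow band. The mean level per kilobase of canonical transcript over the 24 libraries had a median of 1768 CPM per kb, and 65 members lay within 4-fold of it. RPS18 was highest at 8063 CPM per kb, followed by RPS2 (6384 CPM per kb), RPLP0 of the stalk (4920 CPM per kb), RPL8 (4417 CPM per kb) and RPL13A (4296 CPM per kb). Their ranges over libraries overlapped, for example 5064 to 11977 CPM per kb for RPS18 and 3601 to 9251 CPM per kb for RPS2, so neighbours in this order do not differ beyond their spread. The order was much alike in all groups, with Spearman's rho over the 78 genes of 0.93 or more between any pair of group means, a description over genes that share libraries and lengths. RPL37 and RPL14 have canonical models of 7573 and 7136 bases, far longer than their coding sequences (291 and 645 bases), which lowers their level per kb.

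A few members stood far below most others per kilobase, and RPL36A and RPS10 were nearly absent from the count tables. RPL36A stood at 1.13 CPM per kb, RPS10 at 2.00 CPM per kb, RPL17 at 43.3 CPM per kb and RPL22 at 66.0 CPM per kb. RPL22 was well counted, at 136 CPM on average, and its canonical model has 2061 bases for 384 coding bases. RPL36A, RPS10 and RPL17 lie inside annotated read-through genes on the same strand (RPL36A-HNRNPH2, RPS10-NUDT3 and RPL17-C18orf32), which themselves had 0.00208, 0.0397 and 0.0818 CPM. Whether reads that fall in a member and its read-through gene were dropped as ambiguous was not tested, and the low level of these members is not evidence of low expression. RPS2 shows a related limit, since its pseudogene RPS2P5 held 885 CPM on average beside 6033 CPM for RPS2. Adding the pseudogenes to RPS2 changed its log2 ratio of group means between UHRF1-AID and WT at day 4 from -0.87 to -0.84.

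Before auxin, no member passed the test between a degron line and WT. In UHRF1-AID against WT at day 0, 0 of 78 members and 0 of 13894 genes passed an adjusted p of 0.05 (edgeR quasi-likelihood test, Benjamini-Hochberg adjustment over all genes tested, 0% called). At an unadjusted p under 0.05 there were 1 member and 512 genes, and DESeq2 also called 0 members. In DNMT1-AID against WT 0 members were called, against 0.00723% of all genes (1 gene of 13833), with 0 members and 711 genes at an unadjusted p under 0.05. In compound cells against WT 0 members were called, against 3.64% of all genes (1.53% higher and 2.1% lower), with 2 members and 2836 genes at an unadjusted p under 0.05. DESeq2 called 0 members in both. The groups did not overlap for 2, 1 and 5 members in the 3 comparisons, against 10.9%, 9.8% and 28.1% of all genes. Median log2 fold changes of the members were -0.14, 0.14 and 0.09, beside 0.01, -0.01 and 0.01 for all genes tested. Fitted values were below 0 for 75 of 78 members in UHRF1-AID, and above 0 for 71 in DNMT1-AID and 56 in compound cells. The count of 0 called in compound cells rested on 1 library, WT day 0 replicate 3, whose members took 15.9% of counts. Without it 58 members passed in compound cells against WT, 57 of them higher.

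The members fell together in UHRF1-AID cells over 4 days of auxin. At day 4 against day 0 of the same line, 53 of 78 members fell and 0 rose, while 22.9% of all genes tested fell and 26.5% rose. The median log2 fold change of the members was -0.36 (quartiles -0.61 and -0.25), beside 0.02 for all genes and -0.07 for 850 genes that are not members and whose canonical transcript is no longer than the members' median. All members but RPS27, at 0.05, had a fitted change below 0. The comparison lies within a folder and between the same replicate numbers, which the labels do not tie to clones. The count was 50 of 78 with replicate number as a block and 47 of 78 with DESeq2. It dropped to 35, 33 and 34 without UHRF1-AID day 0 replicate 2, day 0 replicate 3 or day 4 replicate 3, all of these members lower.

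RPL3, which lines the catalytic centre of the large subunit, RPL5, which carries the smallest ribosomal RNA, and RPS2, at the mRNA channel of the small subunit, had the smallest p of those that fell. RPL3 was at 4169, 4574 and 4823 CPM at day 0 and at 2549, 2365 and 2416 CPM at day 4 in UHRF1-AID cells. It fell by 0.86 ± 0.09 (SE) on the log2 scale, with an adjusted p of 9.46e-05 (edgeR). RPL5 went from 1696, 1862 and 2006 CPM to 1080, 969 and 966 CPM, a fall of 0.86 ± 0.10 (edgeR adjusted p = 0.000154). RPS2 was at 5907, 6807 and 7125 CPM at day 0 and at 3403, 3776 and 3694 CPM at day 4, a fall of 0.84 ± 0.10 (edgeR adjusted p = 0.000177). In each of the 3 genes every day 4 library was below every day 0 library. The groups did not overlap for 58 of 78 members, against 60.1% of all genes tested. The lowest fitted value was that of the sparsely counted RPL36A (-1.40 ± 0.41), and 2 members were called with a change over 1, against 21.9% of all genes.

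Against WT at day 4 the members were lower in UHRF1-AID cells as a family. Of 77 members tested, 64 were lower and 0 higher, against 6.57% and 10.9% of all genes tested, and RPL36A was too sparse to be tested. The median log2 fold change was -0.52 (quartiles -0.69 and -0.44), beside 0.03 for all genes and -0.23 for 772 short genes that are not members. All 77 fitted values were below 0, between -1.02 and -0.23. Among members, 1 passed with a change over 1 on the log2 scale, RPL17 (-1.02 ± 0.16), against 6.99% of all genes. This comparison crosses folders, and the part of that in the result was not tested. The fall within the line, given above, lies within a folder but spans 4 days of auxin and doxycycline. Since the WT change over the same days crosses folders, the folder and the line cannot be told apart here. The median moved to -0.38 with an offset for canonical transcript length and to -0.37 with length and GC content, both with 44 members lower, and the count was 41 with a replicate block. Without WT day 4 replicate 1, WT day 4 replicate 3 or UHRF1-AID day 4 replicate 3 it was 33, 38 and 29, all lower.

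RPL23A, which sits at the exit of the peptide tunnel, RPS28, a small protein of the small subunit's head, and RPS2 had the smallest p. RPL23A was at 896, 746 and 798 CPM in WT and at 424, 430 and 383 CPM in UHRF1-AID cells at day 4, a fall of 0.99 ± 0.12 on the log2 scale, or 49.6% (edgeR adjusted p = 0.000657). RPS28 was at 1109, 1014 and 1081 CPM in WT and at 606, 552 and 619 CPM in UHRF1-AID cells, a fall of 0.86 ± 0.11 (edgeR adjusted p = 0.00083). RPS2 was at 7167, 6592 and 6099 CPM in WT at day 4, above the UHRF1-AID values given earlier, and fell by 0.88 ± 0.11 (edgeR adjusted p = 0.000903). In WT cells RPL23A was at 526, 531 and 609 CPM and RPS28 at 883, 820 and 955 CPM at day 0, in both cases below every WT library of day 4. The groups did not overlap for 74 of 77 members, against 37.4% of all genes tested.

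**Figure D1:**
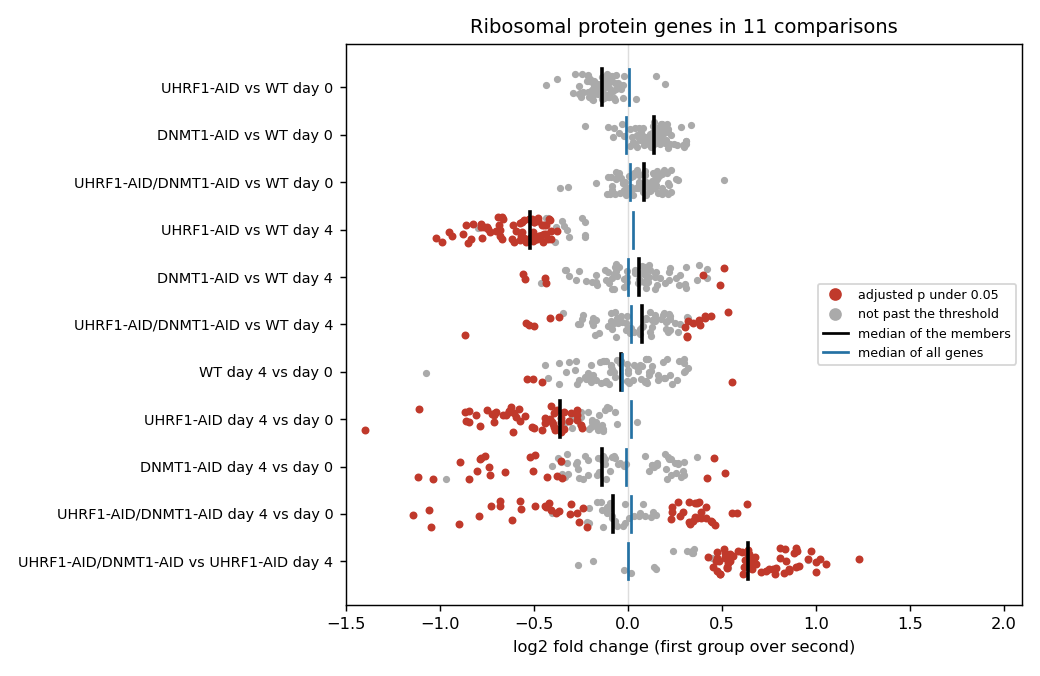
Log2 fold change of each ribosomal protein gene (horizontal axis, first group over second) in 11 comparisons (rows), with a point per gene, coloured red at an adjusted p under 0.05. Black bars mark the median of the members and blue bars that of all genes tested. The medians are -0.52 and 0.03 for UHRF1-AID against WT at day 4, and closer together in the day 0 comparisons.

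Members of both subunits and of each role examined were lower in UHRF1-AID cells. Against WT at day 4, 35 of 45 tested large subunit genes and 29 of 32 small subunit genes were lower, with medians of -0.49 and -0.59. Of all genes tested, 6.57% were lower in that comparison and 22.9% in UHRF1-AID cells against their own day 0. All 3 genes of the stalk that recruits elongation factors (RPLP0, RPLP1 and RPLP2) were lower against WT and against their own day 0, with medians of -0.69 and -0.70. RPLP1 was at 2889, 2567 and 2687 CPM in WT and at 1651, 1710 and 1734 CPM in UHRF1-AID cells at day 4. Around the tunnel exit 6 of 8 genes were lower against WT, and among 9 genes mutated in Diamond-Blackfan anemia, a failure of red cell production, 6 were lower. Neither share was above that of the whole family, 64 of 77 tested. RPS27A and FAU, which are made fused to ubiquitin and to a ubiquitin-like protein, were both lower. Of RPL5 and RPL11, which together bind MDM2 and so stabilise p53 when assembly fails, RPL5 was lower at -0.57 and RPL11 did not pass (-0.32, edgeR adjusted p = 0.0842). The TOP motif did not go with lower values: the median was -0.52 over 58 tested members with the motif, of which 47 were lower, and -0.50 over 19 without, of which 17 were lower.

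In DNMT1-AID cells members were called in both directions and few in number. At day 4 against WT, within a folder, 3 of 77 tested members were higher (RPL27, RPL39 and RPS29) and 4 lower (RPL22, RPL3, RPL4 and RPS2), against 5.02% and 2.93% of all genes (7.95% in either direction). None changed by over 1 on the log2 scale, against 2.57% of all genes, and the groups did not overlap for 19 members, against 29.1%. The median was 0.06, beside 0.00 for all genes. The count is unsteady, at 17 without the filter on low counts, 4 with a replicate block or with all 24 libraries in 1 fit, and 2, 3 or 4 without WT day 4 replicate 2, WT day 4 replicate 1 or DNMT1-AID day 4 replicate 3. RPS2 was at 4122, 4595 and 4721 CPM in DNMT1-AID cells, all below the WT libraries (6099 to 7167 CPM), and fell by 0.56 ± 0.11 (edgeR adjusted p = 0.00513). RPS29, a small zinc-binding protein of the small subunit, was at 448, 424 and 510 CPM in WT and at 558, 650 and 731 CPM in DNMT1-AID cells, a rise of 0.49 ± 0.12 (edgeR adjusted p = 0.0173).

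In compound cells at day 4 the median member was near WT, and the members called did not exceed the background share in either direction. Of 78 tested, 11 were higher and 6 lower, against 20.4% and 17.8% of all genes tested. The groups did not overlap for 29 members, against 49.9% of all genes. The median was 0.08, beside 0.02 for all genes and 0.22 for 830 short genes that are not members. The balance depends on the treatment of length: with an offset for canonical length 5 were higher and 16 lower, and with length and GC content 7 were higher and 19 lower. RPL39, at the tunnel, was at 768, 600 and 711 CPM in WT and at 963, 1103 and 907 CPM in compound cells, a rise of 0.53 ± 0.11 (edgeR adjusted p = 0.0007). RPL4, which also lines the tunnel, was at 2794, 2730 and 2416 CPM in WT and at 1515, 1728 and 2198 CPM in compound cells, a fall of 0.53 ± 0.13 (edgeR adjusted p = 0.00287). Neither gene's groups overlapped.

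Members with short coding sequences had higher fold changes than members with long ones in several comparisons. Spearman's rho between coding length and log2 fold change against WT at day 4 was -0.53 over 77 members in DNMT1-AID and -0.64 over 78 in compound cells, and -0.08 over 77 in UHRF1-AID cells. From day 0 to day 4 it was -0.34 in WT, -0.41 in UHRF1-AID (-0.49 with length and GC content removed), -0.61 in DNMT1-AID and -0.59 in compound cells, each over 78 members. These are descriptions over genes that share the libraries of a comparison, and whether the trend differs between lines was not tested. In 3 bins of 26 genes by coding length, the median in compound cells was 0.21 for members of 75 to 399 coding bases, 0.12 for 405 to 564 bases and -0.12 for 576 to 1281 bases. Of the 11 higher members 8 were in the shortest bin, 3 in the middle bin and 0 in the longest, and of the 6 lower members 5 were in the longest bin and RPL22 in the shortest. Over genes that are not members and whose coding sequence is no longer than that of RPL4, rho was -0.11 (5372 genes) and -0.14 (5651 genes). With each library's trend on canonical length and GC content removed, rho over the members was -0.51 and -0.58.

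The same long members fell with time in all lines, WT included. At day 4 against day 0, RPL3, RPL5 and RPL6 were lower in all 4 lines, and 15 members were lower in all 3 degron lines, among them RPL3, RPL4, RPL5, RPL6, RPL7, RPL7A, RPL8, RPLP0, RPS2 and RPSA. Some of these genes were chosen for mention after their values were seen. In WT 1 member rose and 3 fell, against 17.7% and 17.8% of all genes, with a median of -0.04. Apart from RPL3, RPL5, RPL6 and RPL23A, which rose, no member passed, but 15 passed with all 24 libraries in 1 fit and 32 without WT day 0 replicate 3, 27 of them higher. RPL3 went from 4438, 4594 and 5961 CPM to 3710, 3399 and 3200 CPM in WT (log2 fold change -0.54 ± 0.15, edgeR adjusted p = 0.0235), a smaller fitted fall than in UHRF1-AID cells (-0.86), DNMT1-AID cells (-1.11 ± 0.15) and compound cells (-1.06 ± 0.13). None of the 3 differences from the WT change passed (edgeR adjusted p = 0.23, 0.292 and 0.078). Without WT day 4 replicate 1, 2 or 3 that call in WT was lost. In DNMT1-AID cells 3 members rose and 18 fell, against 19.5% and 20.8% of all genes (40.4% in either direction), with a median of -0.14. The groups did not overlap for 37 members, against 53.9% of all genes. That count was 39 without DNMT1-AID day 0 replicate 3, and 12 and 13 without day 0 replicate 1 and day 4 replicate 1. RPL4 fell most clearly, from 4172, 4321 and 3646 CPM to 1738, 2048 and 2044 CPM in DNMT1-AID cells (-1.04 ± 0.13, edgeR adjusted p = 0.000197).

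Compound cells had members that rose and members that fell over time, at shares near those of all genes. From day 0 to day 4, 25 members rose and 24 fell, against 35.2% and 32.5% of all genes (67.8% in either direction), and the groups did not overlap for 56 members, against 71.7%, with a median of -0.08 beside 0.02 for all genes. With an offset for canonical length the split was 14 against 36. RPS27 rose from 970, 980 and 999 CPM to 1392, 1636 and 1416 CPM (0.63 ± 0.08, edgeR adjusted p = 2.73e-06), and RPL6 fell by 0.90 ± 0.09 (edgeR adjusted p = 1.73e-07). By bins of coding length, 13 of the shortest, 11 of the middle and 1 of the longest members rose, and 4, 4 and 16 fell. In UHRF1-AID cells over the same days the medians of the bins were -0.28, -0.34 and -0.59, so there the median of the shortest members was below 0 as well. The small subunit had 16 genes higher and 7 lower in compound cells and the large subunit 9 higher and 17 lower. This comparison crosses folders, so the folder and the day cannot be told apart in it. The ratio of counts on large subunit genes to counts on small subunit genes was 1.49 to 1.61 in the libraries of one folder. In the other folder it was 1.30 to 1.46. UHRF1-AID at day 4, the only day 4 group in the folder with the higher ratios, had 1.61, 1.51 and 1.58, beside 1.56 to 1.58 at its day 0.

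**Figure D2:**
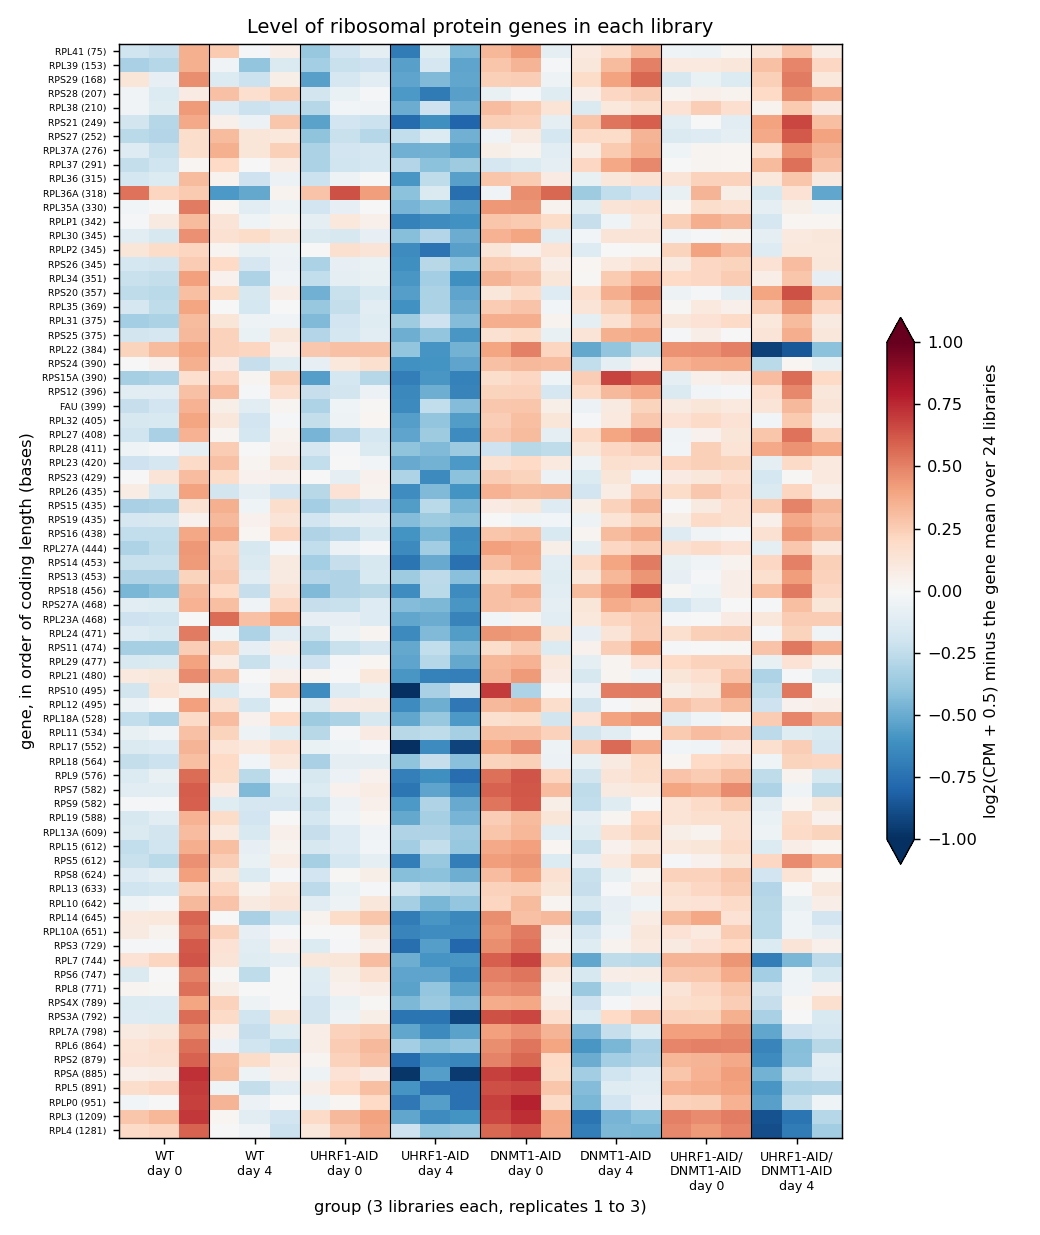
Deviation of log2(CPM + 0.5) of ribosomal protein genes from its mean over all libraries (colour, limited to the range from -1 to 1), with genes in rows from short to long coding sequences (bases in brackets) and the 24 libraries in columns by group. UHRF1-AID at day 4 is low in nearly every row, DNMT1-AID and compound cells at day 4 are high in the upper and low in the lower rows, and WT day 0 replicate 3 and DNMT1-AID day 0 replicates 1 and 2 are high in most rows.

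Few members passed a test of the difference between day effects. The change from day 0 to day 4 was more negative in UHRF1-AID than in WT cells for 9 of 78 members, among them RPL17, RPL22, RPL23, RPL23A, RPLP1, RPLP2, RPS2 and RPS28, and more positive for 0, against 1.02% and 2.59% of all genes. The median difference was -0.39, and 37 members had an unadjusted p under 0.05. RPL23A had the smallest p, with a difference of -1.04 ± 0.15 (edgeR adjusted p = 0.00348). The count was 41, all lower, without WT day 0 replicate 3, but between 2 and 4 without most of the other libraries, and 3 with a replicate block. For DNMT1-AID 0 members passed (0.153% of all genes called, 9 members and 1829 genes at an unadjusted p under 0.05, and 1 member with DESeq2). For compound cells, RPS29 was more positive and RPL22 and RPL4 more negative, against 6.14% and 9.12% of all genes.

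A direct comparison of the day 4 groups, added after the others were seen and crossing folders, gave 63 of 78 members higher in compound cells than in UHRF1-AID cells and 0 lower, against 9.62% and 8.15% of all genes. The median was 0.64, beside 0.00 for all genes and 0.47 for 845 short genes that are not members. With an offset for canonical length 27 members passed, all higher, and the median was 0.24. RPS21 was at 516, 574 and 507 CPM in UHRF1-AID and at 1161, 1400 and 1081 CPM in compound cells, a difference of 1.23 ± 0.13 (edgeR adjusted p = 0.00104). RPL4, RPL22 and RPL6 had the lowest values, -0.27, -0.19 and -0.02, and did not pass.

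RPL22 was lower than in WT in all 3 degron lines at day 4, as were RPS2 and RPL3, in comparisons that share the same 3 WT libraries. RPL22 is a large subunit protein that also binds other RNAs and is known to repress its paralog RPL22L1. RPL22 stood at 153, 151 and 135 CPM in WT, at 98.9, 86.3 and 93.4 CPM in the UHRF1-AID line, at 91.1, 99.1 and 109 CPM in the DNMT1-AID line and at 67.7, 72.2 and 97.6 CPM in compound cells at day 4. No degron library reached the lowest WT library. Before auxin its level was 152 to 171 CPM in WT and 151 to 185 CPM in the degron lines. Log2 fold changes against WT at day 4 were -0.67 ± 0.11 in the UHRF1-AID line (edgeR adjusted p = 0.00295), -0.55 ± 0.10 in DNMT1-AID (edgeR adjusted p = 0.00278) and -0.87 ± 0.13 in compound cells (edgeR adjusted p = 5.89e-05). Its day effect differed from that of WT by -0.65 ± 0.12 in UHRF1-AID (edgeR adjusted p = 0.014) and by -1.05 ± 0.16 in compound cells (edgeR adjusted p = 0.00083), while the difference of -0.59 ± 0.15 in DNMT1-AID did not pass (edgeR adjusted p = 0.155). The mRNA of RPL22L1 did not mirror it in every line. It was at 364, 280 and 329 CPM in WT at day 4, and higher at 431, 491 and 485 CPM in DNMT1-AID (0.54 ± 0.11, edgeR adjusted p = 0.00653). In UHRF1-AID it was at 211, 296 and 241 CPM and in compound cells at 438, 492 and 321 CPM, both overlapping WT and not past the test.

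Of the paralogs, RPL10L and RPL39L, whose expression is known mainly from testis, were highest in compound cells at day 4. RPL10L had 17, 27 and 34 counts there, or 1.04, 1.71 and 2.03 CPM, and RPL39L had 40, 33 and 31 counts, or 2.46, 2.09 and 1.85 CPM. Neither had a count in any WT library at day 4, so against a floor of 3 counts per library RPL10L was at least 8.33-fold higher and RPL39L at least 11.1-fold higher. Both passed the filter on low counts through the compound libraries alone, so no p is given for this comparison. Before auxin RPL10L had 3 counts in compound day 0 replicate 3 and 0 in the other 11 libraries, and RPL39L had 0 in all 12. DNMT1-AID cells at day 4 had 2, 1 and 4 counts of RPL10L and 2, 7 and 3 of RPL39L, and UHRF1-AID cells 0 of RPL10L and 1 of RPL39L in each library. Their parent genes RPL10 and RPL39, both X-linked, were at 1695 to 2141 CPM and 907 to 1103 CPM in the same libraries. RPL10L and RPL39L carry no TOP run at the annotated start shown above.

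The remaining neighbours moved in their own ways. RPS27L, a paralog of RPS27 known as a p53 target, was at 172, 189 and 158 CPM in compound cells and at 94.6, 70.9 and 84.1 CPM in WT cells at day 4 (1.08 ± 0.11, edgeR adjusted p = 2.16e-07). It was already higher in that line before auxin (0.95 ± 0.15, edgeR adjusted p = 0.0194), a call that was lost without WT day 0 replicate 1 or 2 or any compound day 0 library. In DNMT1-AID cells RPS27L was at 103 to 154 CPM at day 0, beside 65.0 to 98.1 CPM in WT. At day 4 it was at 107 to 188 CPM in DNMT1-AID cells, again above WT, and neither difference passed. UHRF1-AID overlapped WT at both days. RPL7L1, which acts in ribosome assembly, fell from day 0 to day 4 in all 4 lines, by 0.86 in WT, 1.14 in the UHRF1-AID line, 0.64 in the DNMT1-AID line and 1.31 in the compound line. RPL36AL (0.31) and RPL26L1 (0.32) were higher in compound cells than in WT cells at day 4, and neither passed with an offset for length. RPL3L stayed at or under 1.07 CPM. RACK1 fell in UHRF1-AID cells by 0.37 ± 0.10 from day 0 to day 4 (edgeR adjusted p = 0.0121).

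Translation factors of the TOP class were also lower in UHRF1-AID cells. In UHRF1-AID cells 12 of 15 tested were lower at day 4 than at day 0 and 9 of 15 lower than in WT, with 0 higher in either, against 22.9% and 6.57% of all genes. EEF1B2, which recharges the elongation factor that brings tRNA to the ribosome, was lower than in WT by 0.88 ± 0.13 (edgeR adjusted p = 0.00221). EEF1G was listed at 0 in every library and was not tested. From day 0 to day 4, 12 of 15 were lower in DNMT1-AID and 12 of 15 in compound cells, with 1 and 2 higher, while 20.8% and 32.5% of all genes were lower. In WT cells 5 of 15 were lower over the same days and 0 higher, while 17.8% of all genes were lower. In the test of differences from the WT day effect, 0 of 15 passed for UHRF1-AID and 0 for DNMT1-AID. For compound cells 5 were more negative and 0 more positive, while 9.12% of all genes were more negative. Against WT at day 4, 5 of 15 were lower and 0 higher in DNMT1-AID cells, and 7 lower and 2 higher in compound cells, against 2.93% and 17.8% of all genes lower. HNRNPA1, an RNA-binding protein in this list, was lower than WT at day 4 in DNMT1-AID (-0.67 ± 0.10, edgeR adjusted p = 0.000929) and in compound cells (-0.93 ± 0.12, edgeR adjusted p = 4.3e-06).

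Genes of ribosome assembly fell with time in every line. From day 0 to day 4, of 49 tested, 32 fell in WT cells, 40 in the UHRF1-AID line, 39 in the DNMT1-AID line and 46 in the compound line, with 1, 0, 1 and 1 rising, while 17.8%, 22.9%, 20.8% and 32.5% of all genes fell. Against WT at day 4, UHRF1-AID cells had 8 lower, DNMT1-AID cells 2 and compound cells 24, against 6.57%, 2.93% and 17.8% of all genes, so the count in DNMT1-AID is near the background. The nucleolar helicase DDX21 (-1.01 ± 0.09, edgeR adjusted p = 4.8e-08) and the assembly factors GNL3 (-0.79 ± 0.10) and RRS1 (-1.21 ± 0.15) led the list in compound cells. Of 11 regulators tested against WT at day 4, 2 were lower and 1 higher in UHRF1-AID cells, and 2 lower and 0 higher in compound cells. The shares of all genes that were lower are those given above. MYC was lower than WT at day 4 in UHRF1-AID (-1.07 ± 0.14, edgeR adjusted p = 0.0013) and in compound cells (-1.20 ± 0.10, edgeR adjusted p = 4.14e-09). In DNMT1-AID cells MYC was at -0.01 ± 0.33, which did not pass. In WT cells it averaged 282 CPM at day 0 and 117 CPM at day 4. Whether MYC has a part in the levels of the members was not tested.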

How the data were processed

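Poly(A) RNA-seq libraries of 24 samples were aligned with STAR to hg38 and counted per gene with featureCounts by the authors, who deposited raw counts per gene; strand and multi-mapping settings are not given in the sources used here. Members and gene lists were chosen with earlier results of these data known.

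Counts were fitted with edgeR 4.0.16 (R 4.3.3): filterByExpr, TMM scaling and the robust quasi-likelihood test over the libraries compared, with Benjamini-Hochberg adjustment over all genes tested and a threshold of 0.05. CPM used TMM library sizes. ERCC sequences were left out. Single-gene results of some genes are not reported here. The 3 day-effect contrasts used 4 groups each. In each comparison the 3 members with the smallest p in each direction were named, with the highest and lowest expressed members, the paralogs and up to 3 genes per list. The code was tested on simulated data. Alternatives were RLE scaling, no filter, all libraries in 1 fit, a replicate block, DESeq2 1.42.0, loess offsets (span 0.4) for length and GC content, TMM without members, and leaving out each library (96 fits). The offsets on canonical length and the comparison of both UHRF1-tagged lines at day 4 were chosen after seeing the data. All 24 pairs of replicates differed beyond sampling noise (chi-square per degree of freedom 3.71 to 64.4). Numbers were taken to pair samples where every same-numbered pair deviated together with r over 0.1, which held for UHRF1-AID day 4 against day 0 (0.12 to 0.23). In the compound line r was 0.078 to 0.089, and each library also matched its own number best. Intervals from counting were not used, and the floor of 3 counts covers counting error only.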

Additional observations from a re-analysis of the deposited data

Results flagged for a closer look

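Of the results above, these differences between the day effect of a degron line and that of WT passed a test of the difference itself (edgeR contrast of day 4 against day 0 between lines, adjusted p under 0.05). In UHRF1-AID cells the change was more negative than in WT by -1.04 for RPL23A, -0.95 for RPL17, -0.82 for RPS28, -0.77 for RPS2, -0.66 for RPL23, -0.65 for RPL22, -0.58 for RPLP1 and -0.55 for RPLP2 on the log2 scale. RPL17 is among the sparsely counted members. In UHRF1-AID/DNMT1-AID cells the change was more negative by -1.05 for RPL22 and -0.68 for RPL4 and more positive by 0.68 for RPS29. The WT change crosses alignment folders while that of UHRF1-AID does not, so the folder and the line cannot be told apart in the UHRF1-AID differences.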

How the results depend on the processing

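Calls of members moved mostly with transcript length and with single libraries. Canonical length and length with GC gave 1 and 1 called members in compound cells against WT at day 0, 11 and 16 in DNMT1-AID against WT at day 4, 12 and 16 in WT day 4 against day 0, 34 and 34 in DNMT1-AID day 4 against day 0, 11 and 13 in the compound difference of day effects, and 27 and 27 in compound cells against UHRF1-AID at day 4 (medians 0.24 and 0.23). Length with GC gave 26 (7 higher, 19 lower) in compound cells against WT at day 4 and 14 in the UHRF1-AID difference of day effects, and the medians of UHRF1-AID against WT at day 4 became -0.38 and -0.37. Summed exon length gave 7 in WT day 4 against day 0. Without the filter 17 and 5 passed in DNMT1-AID against WT at day 4 and the compound difference of day effects. All libraries in 1 fit gave 4 in DNMT1-AID against WT at day 4, 15 in WT day 4 against day 0 and 14 in the UHRF1-AID difference, RLE scaling 4 in that difference, and DESeq2 1 in the DNMT1-AID difference.

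With the replicate number as a block 41 members passed in UHRF1-AID against WT at day 4, 4 in DNMT1-AID against WT at day 4, 1 in WT day 4 against day 0 and 3 in the UHRF1-AID difference, where samples share only a number. The paired UHRF1-AID day comparison gave 50 with the block, all lower.

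Leaving out single libraries gave 0 to 58 members in compound cells against WT at day 0, 29 to 74 in UHRF1-AID, 2 to 10 in DNMT1-AID and 7 to 22 in compound cells against WT at day 4. For day 4 against day 0 the ranges were 1 to 32 in WT, 33 to 68 in UHRF1-AID (medians -0.47 to -0.33) and 12 to 39 in DNMT1-AID, and for differences of day effects 2 to 41, 0 to 2 (medians -0.295 to -0.0345) and 1 to 22. Of these, 58, 32, 41, 2 and 22 came without WT day 0 replicate 3. In compound cells against WT at day 4, 11 passed without WT day 4 replicate 2 and 7 without compound day 4 replicate 2. The share of compound cells at day 0 was 15.01% without mitochondrial genes and 14.8% with pseudogenes. Signs turned for RPS27 in UHRF1-AID day 4 against day 0 (-0.0609 without UHRF1-AID day 4 replicate 2, up to 0.136 without replicate 3), RPL6 in compound cells against UHRF1-AID at day 4 (0.00185 with summed exon length), and RPS29 in the UHRF1-AID difference (-0.117 to 0.115 over left-out libraries, below 0 in 5 of them), none of them called. Fits without single libraries were not run for compound cells against UHRF1-AID. The cause of these changes was not tested.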

Other observations

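Genes of oxidative phosphorylation, the complexes of the mitochondrial respiratory chain and its ATP synthase, were higher in the compound UHRF1-AID/DNMT1-AID cells at day 4. Against WT 38 of 74 tested were higher and 5 lower (median log2 fold change 0.29), against 20.4% and 17.8% of all genes, and in UHRF1-AID cells 1 was higher and 12 lower (median -0.28), against 10.9% and 6.57% of all genes. NDUFA11, a subunit of complex I, was at 42.4 CPM in compound and 17.7 CPM in WT cells on average (1.27 ± 0.15, edgeR adjusted p = 2.7e-06). Like the ribosomal protein genes, many of these genes are short, and their trend with length was not tested. Mitochondrial ribosomal proteins gave 13 higher and 22 lower of 76 in compound cells and 0 higher and 21 lower in UHRF1-AID cells against WT at day 4.

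In the 9 libraries with ERCC RNAs, counts on the 78 ribosomal protein genes per ERCC count were 12.8, 14.1 and 9.42 in WT, 8.34, 9.71 and 10.3 in DNMT1-AID and 7.32, 9.20 and 9.18 in compound cells at day 4. WT overlapped DNMT1-AID and did not overlap the compound line. How the ERCC RNAs were dosed is not given in the sources used here, and UHRF1-AID libraries held none.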
